A study of Mus musculus with 56 samples.

Results

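The genes described here mark 2 cell types of the airway lining, club cells and ciliated cells. Of 10 genes named for this purpose, Scgb1a1, Scgb3a1, Scgb3a2 and Bpifa1 stand for the secretory (club) cells and Foxj1, Tekt1, Rsph1, Dnah5, Ccdc39 and Dynlrb2 for the ciliated cells. Each gene was found through the RefSeq accession given for its probe on the array, and the probe with the brightest sample signal in a tissue was used. This gave a probe for 9 of the 10 genes, out of 20018 genes with a symbol on the array, and no value is given for Scgb3a2.

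RNA of adult male MutaMouse, a transgenic mouse strain used to score mutations, was measured to ask how the response to chrysene, a polycyclic aromatic hydrocarbon, depends on dose and differs between tissues. The mice were about 14 weeks old and received a daily gavage for 28 days. The control group (D0) was given the vehicle, olive oil, and the groups D1, D2 and D3 were given chrysene dissolved in it, with D1 at 17.5, D2 at 50 and D3 at 150 mg/kg-bw/day. Lung, liver and forestomach were collected 72 h after the last dose, and RNA came from random sections of each organ, so that the share of airway in a lung section was not controlled. The 56 arrays comprised 5, 5, 3 and 5 lungs in D0, D1, D2 and D3, and 5, 5, 4 and 5 livers and forestomachs, with 1 array for each mouse and tissue. Each value is the log2 ratio of the sample's RNA (Cy5) over a universal reference RNA from 11 mouse cell lines (Cy3), so that a value of 0 means equal signal and a step of 1 means a doubling.

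Club cells are dome-shaped secretory cells that release secretoglobins and other proteins onto the airway surface, metabolise foreign chemicals through cytochrome P450 enzymes, and can renew the airway lining. Ciliated cells carry motile cilia, whose core of microtubules is moved by dynein arms and held in register by radial spokes, and they sweep the secretions upwards. The transcription factor Foxj1 switches on the genes of motile cilia together with RFX factors, which bind the so-called X-box.

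The members' promoters are shown because several of these genes moved together from mouse to mouse. RefSeq promoter windows (GRCm38.p6) were found for 6 of the 10 genes, Bpifa1, Ccdc39, Dnah5, Dynlrb2, Scgb3a1 and Tekt1, but not for Scgb1a1, Scgb3a2, Foxj1 or Rsph1. The 250 bases before the start site were searched on both strands for GTTGCC (the half-site of the X-box), TGTTTNC (a core bound by forkhead factors) and TATAAA (the TATA box), which do not overlap one another in the windows printed. They occurred in 10.4%, 17.8% and 12.4% of 32851 promoter windows of the same length. The following are printed 5′ to 3′ on the gene's strand with matches in capitals, from chr11:72361883-72362132 (minus strand) for Tekt1, chr8:116504765-116505014 (plus strand) for Dynlrb2, chr2:154142630-154142879 (plus strand) for Bpifa1 and chr11:49663345-49663594 (plus strand) for Scgb3a1.
Tekt1: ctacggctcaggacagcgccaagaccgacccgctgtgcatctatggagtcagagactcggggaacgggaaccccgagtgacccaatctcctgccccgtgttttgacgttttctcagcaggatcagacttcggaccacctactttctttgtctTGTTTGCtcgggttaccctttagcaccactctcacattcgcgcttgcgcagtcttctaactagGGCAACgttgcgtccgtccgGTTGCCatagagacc
Dynlrb2: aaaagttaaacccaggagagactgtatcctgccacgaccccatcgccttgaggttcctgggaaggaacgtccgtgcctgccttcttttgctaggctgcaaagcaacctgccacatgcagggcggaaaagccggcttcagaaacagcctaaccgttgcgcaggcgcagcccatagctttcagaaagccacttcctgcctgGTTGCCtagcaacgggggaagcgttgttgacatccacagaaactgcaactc
Bpifa1: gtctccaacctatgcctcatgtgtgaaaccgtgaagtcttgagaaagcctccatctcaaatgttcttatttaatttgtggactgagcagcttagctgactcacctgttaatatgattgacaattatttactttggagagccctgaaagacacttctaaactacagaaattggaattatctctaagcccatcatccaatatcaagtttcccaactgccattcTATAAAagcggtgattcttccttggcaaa
Scgb3a1: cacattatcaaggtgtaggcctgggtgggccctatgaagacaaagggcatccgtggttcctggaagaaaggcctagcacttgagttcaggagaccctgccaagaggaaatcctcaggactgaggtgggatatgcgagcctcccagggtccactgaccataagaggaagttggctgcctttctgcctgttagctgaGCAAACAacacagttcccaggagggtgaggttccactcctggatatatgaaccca
Tekt1 held GTTGCC on both strands, 15 and 35 bases before the start, and TGTTTNC 98 bases before it. Dynlrb2 held GTTGCC 51 bases before the start. Bpifa1 held TATAAA 29 bases before the start, and Scgb3a1 held TGTTTNC on the opposite strand, 55 bases before the start. A second Tekt1 window and the Ccdc39 window held none of the 3 motifs, and the Dnah5 window held TGTTTNC on the opposite strand, 65 bases before the start. A match is a run of letters and was not tested as a binding site, and its part in how genes vary between mice was not tested. In the correlations below Tekt1 passed, as did Dnah5 and Ccdc39, whose windows held no GTTGCC, and Dynlrb2 did not.

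The lung arrays had a sample signal well above background at 47.6 to 55.2% of probes, the liver arrays at 33.2 to 45.2% and the forestomach arrays at 18.1 to 50.2%. All 5 D0 lung arrays lay in the first column of their slides and no dosed lung array did, so that column and dosing cannot be told apart in lung. In each tissue all 5 D1 arrays lay in column 2, which held no other group, so that D1 and column cannot be told apart either. In liver and forestomach 4 of 5 D0 arrays lay in column 1, and in each tissue 4 of 5 D3 arrays lay in column 4. In 2 D3 lungs, mice 17 and 19, the mean log2 ratio of 11 skeletal muscle genes was 5.41 and 5.20, against −0.90 to −0.18 in the 16 other lungs. The mean of 10 keratinocyte genes in these lungs was 3.52 and 3.93, against −0.75 to −0.43. Of 9 cartilage genes, which would mark large airway walls, at most 3 were well above background on any lung array. Comp was so on 5 of 18, Col11a2 on 2, Col2a1, Cnmd, Hapln1 and Col9a1 on 1 each, and Acan, Matn1 and Matn3 on 0.

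In vehicle mice all 9 measured genes were higher in lung than in liver and than in forestomach. Each passed the limits in both comparisons (limma, Benjamini-Hochberg adjusted p of at most 0.05 and a fold of at least 1.5), where 24.9% and 19.3% of all probes tested were called higher in lung, but with median centring in place of the authors' scaling Ccdc39 was 0.50 over forestomach, under the fold limit. In lung the 9 genes were well above background on all 18 arrays. In liver, 7 of the 9 were below that limit in all 5 D0 mice, and in forestomach 4 of the 9 were. Genes that entered a test through lung alone had to differ, so that these counts describe the members and support nothing, and no p is given for a member that a tissue lacked. Where the dimmer tissue was near background, the fold is given as "at least" the smallest of 3 measures: the normalized sample channel, the scanner's sample signal, and the ratio over the reference.

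**Figure D1:**
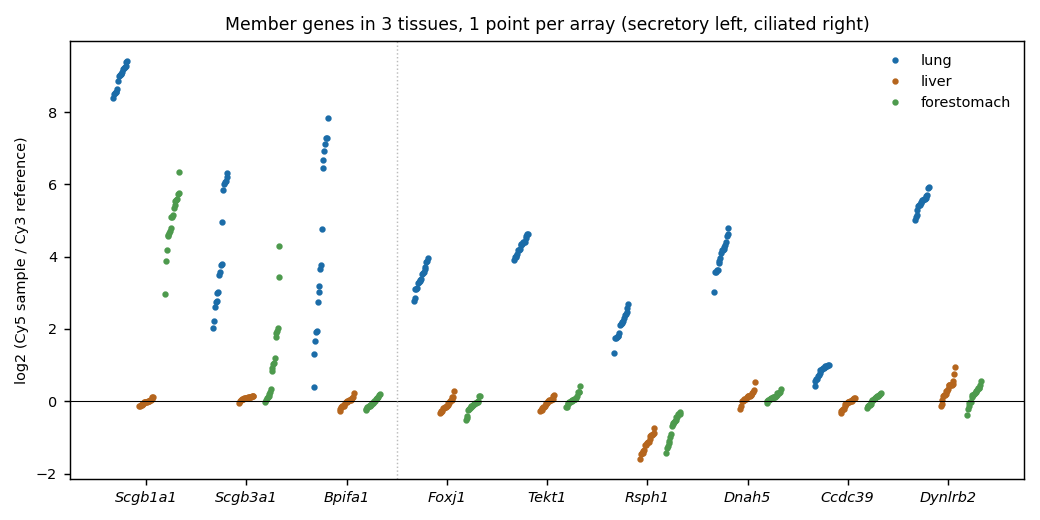
Log2 ratio of sample (Cy5) over reference (Cy3) signal of the 9 measured genes (horizontal axis) on each array of lung, liver and forestomach. Each point is 1 mouse of any dose. Lung lies above the other tissues for every gene, apart from an overlap with forestomach for Scgb3a1, and Scgb1a1 lies at 2.98 to 6.33 in forestomach.

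Scgb1a1 encodes the main secretoglobin of club cells. Its log2 ratio in the 5 D0 lungs was 8.99, 9.07, 8.50, 9.40 and 8.63, and on the liver arrays it ranged from −0.13 to 0.12. Every lung lay above every liver. D0 lung was at least 488-fold brighter than D0 liver, where 0 of 5 signals were well above background. That bound comes from the ratio, and the scanner's sample signal alone gave 5570-fold. The reference channel of this probe did not stay constant, although the reference RNA was the same: its median was 1164 on lung arrays (853 to 1804), 153.5 on forestomach arrays (88.9 to 246.2) and 70.95 on liver arrays (64.35 to 74.75). Its part in the log2 ratios of Scgb1a1 was not tested. No spot of the 9 genes was saturated.

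Scgb3a1, a secretoglobin of secretory cells in the larger airways, and Bpifa1, a secreted defence protein of the upper airways and their glands, were also higher in D0 lung than in D0 liver. Scgb3a1 was at least 16.6-fold brighter and Bpifa1 at least 19.5-fold, but the limit for Bpifa1 was 10.9-fold without mouse 5 and 31.9-fold without mouse 3. Both genes varied widely between lungs.

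Among the ciliated genes, 1 D0 liver was above background for Dynlrb2, a light chain of dynein, and 1 for Rsph1, a protein of the radial spoke head. Lung was at least 36.5-fold brighter for Dynlrb2 and at least 9.45-fold for Rsph1. For the others 0 of 5 D0 livers were well above background. Lung was at least 13.7-fold brighter for Foxj1 and at least 20.9-fold for Tekt1, a filament protein of the ciliary microtubules. Dnah5, the heavy chain of the outer dynein arm, was at least 12.4-fold brighter. Ccdc39, part of the molecular ruler that spaces the arms along the cilium, was at least 1.68-fold brighter. The reference signals of Dnah5 and Ccdc39 were above background on 0 of 18 lung arrays, so that their ratios were measured against background.

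Most other genes of these programmes were called higher in D0 lung as well. Over all probes 24.9% were called higher and 21.1% lower in lung than in liver, and 19.3% and 18.3% than in forestomach. Of 35 further cilia genes tested, 33 were called higher in lung than in liver and 32 of 35 higher than in forestomach, with 0 called lower. Of 22 further airway secretory genes, 15 were called higher and 1 lower against liver, and 16 higher and 1 lower against forestomach. Many of these were bright in lung alone: 10 of the cilia genes passed the limit on dim probes in liver too, of which 10 were called higher, and 9 of the secretory genes did, of which 3 were called higher and 1 lower. In forestomach 17 cilia genes also passed, of which 17 were called higher, and 21 secretory genes, of which 15 were called higher and 1 lower.

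Scgb1a1 was also detected in the forestomach, a stratified squamous pouch that stores food. Its log2 ratio in the D0 forestomachs was 5.43, 5.75, 2.98, 3.88 and 5.73. It ranged over the 19 mice from 2.98 to 6.33, with a median of 5.10, and was well above background in all of them. Every forestomach lay above every liver and below every lung. D0 forestomach was at least 13.8-fold brighter than D0 liver, where 0 of 5 signals were well above background (9.03-fold without mouse 5). The D0 lung ratio exceeded that of forestomach by 4.17 (SE 0.31, adjusted p = 4.76e-16, limma), or 18-fold. For lung over forestomach the normalized sample channel gave 199-fold and the scanner's sample signal 403-fold. Of 4 members bright enough in either tissue for a fit of forestomach against liver, Scgb1a1 was the 1 called, beside 41% of all probes, but it entered through forestomach alone.

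The sample signal of Scgb1a1 in forestomach followed the slide. It was 2789 to 6110 on the 7 arrays of slide 1, 680 to 1462 on the 5 arrays of slide 2 and 217 to 741 on the 7 arrays of slide 3. The lowest of these still exceeded the liver signals, which were 74.7 to 86.95. The share of probes above background in forestomach also went with the slide, from 39.0 to 50.2% on slide 1, 23.4 to 33.4% on slide 2 and 18.1 to 28.7% on slide 3. The part of the slide in the Scgb1a1 signal was not tested. Of 10 alveolar type 2 genes, the surfactant protein genes Sftpc and Sftpa1 and the phosphate transporter gene Slc34a2 were above background on 0 of 19 forestomach arrays, Sftpb on 1, Napsa on 5, Sftpd on 9 (up to 3.90) and Lyz2 on 14. Abca3, Lamp3 and Etv5 were so on 19 of 19. The part of lung RNA in the Scgb1a1 signal was not tested. Cyp2f2, a cytochrome P450 abundant in club cells, was well above background on 19 of 19 forestomach arrays, at 4.92 to 6.44. It was so on 19 of 19 liver arrays too, at 6.16 to 6.59, and thus does not mark club cells alone here. The cilia regulator Foxj1 was well above background on 0 of 19 forestomach arrays.

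Scgb3a1 in forestomach was detected on 11 of 19 arrays and ranged from −0.01 to 4.29. It was 0.21, 4.29, 1.78, −0.01 and 0.92 in D0 and 2.03, 3.43, 1.88 and 0.08 in D2. The forestomach arrays fell into separate groups by 9 glandular stomach genes, whose mean log2 ratio was 5.30 to 7.01 on 10 arrays and 0.14 to 2.00 on 9. Scgb3a1 was detected on 9 of the former 10 and 2 of the latter 9, and the 2 highest values, in mice 2 and 12, came with 2 of the highest glandular means. The values went with the slide too. Scgb3a1 was detected on 7 of 7 arrays of slide 1, at 0.92 to 4.29, on 1 of 5 of slide 2, at 0.12 to 2.03, and on 3 of 7 of slide 3, at −0.01 to 1.88. Mice 2 and 12 were both on slide 1, and of the 10 arrays with high glandular means 5 were on slide 1, 1 on slide 2 and 4 on slide 3. The parts of glandular tissue and of the slide in the Scgb3a1 values were not tested. At D0 it was above background in 3 of 5 forestomachs and 0 of 5 livers, a brightness at least 2.05-fold higher on average, and 1.17-fold without mouse 2. Lung exceeded forestomach by 2.70 (SE 0.70, adjusted p = 0.000834, limma). Leaving out mouse 4 gave 1.86 (adjusted p = 0.0323), mouse 5 gave 2.07 (0.0188) and mouse 2 gave 3.69 (2.29e-05). This was the 1 gene of 9 for which D0 lungs and D0 forestomachs overlapped.

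**Figure D2:**
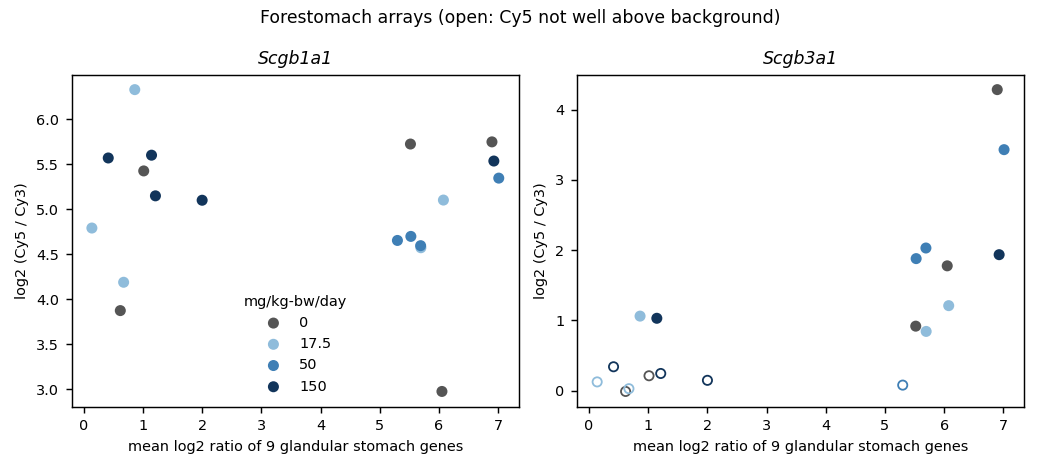
Log2 ratio of Scgb1a1 (left) and Scgb3a1 (right) in each of 19 forestomachs against the mean log2 ratio of 9 glandular stomach genes on the same array, coloured by dose. Filled points were well above background, as Scgb1a1 was on all 19 arrays and Scgb3a1 on 11, of which 9 have a glandular mean of at least 5.30.

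For the remaining genes forestomach and liver stayed near the floor of detection. Bpifa1, Foxj1, Dnah5 and Ccdc39 were above background on 0 of 19 arrays of either tissue, and Tekt1 on 1 of 19 in each. Rsph1 was detected on 6 forestomach arrays and 1 liver array, at −0.73 ± 0.36 and −1.16 ± 0.24 (SD, n = 19 each) and thus below a reference signal that was itself above background on all 19 arrays of each tissue. Dynlrb2 was detected on 3 arrays of each tissue.

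In lung, chrysene gave no member a called change at any dose. By limma 0 of 9 were called at D1 and at D2, where 0% of 31496 probes were called, and 0 of 9 at D3, where 0.127% were. The trend over dose steps called 0 of 9, beside 0.168% of all probes. At an unadjusted p of at most 0.05, 1 of 9 passed at D1 (Foxj1), beside 5.88% of all probes. Of the 9, 0 passed at D2, D3 or in the trend, beside 6.12%, 16.1% and 17.3%. In a whole-organ sample fewer cells of a type and less RNA per cell cannot be told apart.

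**Figure D3:**
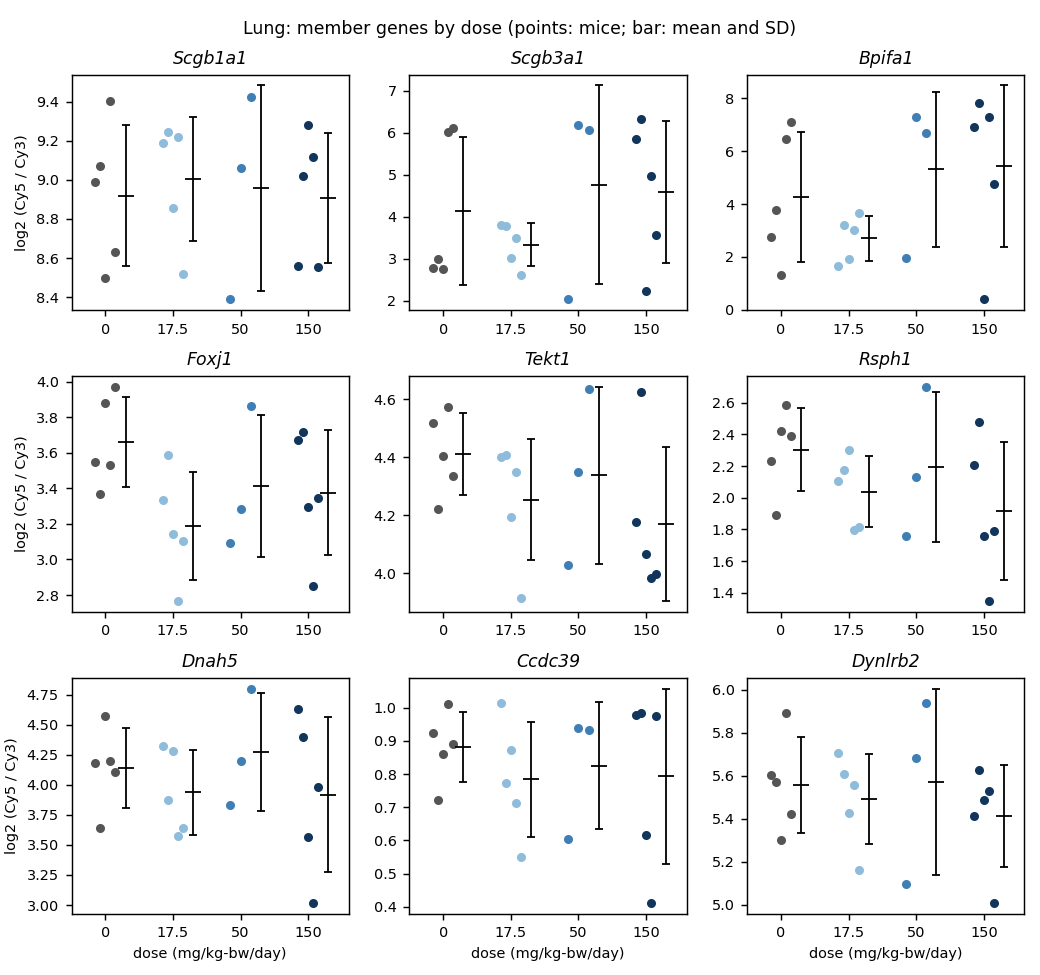
Log2 ratio of each gene in lung by dose in mg/kg-bw/day, with a vertical scale of its own in each panel. Points are mice, and bars beside them give the group mean and SD (5, 5, 3 and 5 mice). The dose groups overlap for all 9 genes, and the spread of Scgb3a1 and Bpifa1 at 0, 50 and 150 mg/kg-bw/day far exceeds that at 17.5.

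Scgb1a1 was the steadiest of the secretory genes. Its log2 ratio was 9.19, 9.25, 8.85, 9.22 and 8.52 in D1, 8.39, 9.06 and 9.43 in D2, and 8.56, 9.02, 9.28, 9.12 and 8.55 in D3. These groups covered the same range as D0. The D3 difference was −0.01 (SE 0.21, 95% interval −0.46 to 0.44, adjusted p = 0.985, limma), so that a change beyond 0.46 either way lies outside the interval, and it was −0.12 without mice 17 and 19. The values went with the slide instead, at 8.99 to 9.25 on slide 1, 8.86 to 9.43 on slide 2 and 8.39 to 8.63 on slide 3, and within slides 1, 2 and 3 the D3 difference was −0.01, −0.20 and −0.01. With the slide as a block it was −0.03 (adjusted p = 0.905).

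Bpifa1 varied most. In D0 its log2 ratio was 2.75, 3.76, 1.31, 6.45 and 7.11, in D1 1.67, 3.19, 1.93, 3.03 and 3.65, in D2 1.94, 7.30 and 6.69, and in D3 6.92, 7.84, 0.40, 7.28 and 4.77. High values above 6.4 thus occurred in 2 vehicle mice, 2 D2 mice and 3 D3 mice, and in no D1 mouse. The D3 difference was 1.17 (SE 1.37, 95% interval −1.72 to 4.06, adjusted p = 0.717, limma), and at this spread even large changes could not be seen. It was −0.24 without mice 17 and 19, and 4.58, −2.60 and 1.64 within the 3 slides.

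Scgb3a1 followed the same mice. It was 2.78, 3.00, 2.76, 6.02 and 6.11 in D0, 3.80, 3.77, 3.01, 3.48 and 2.61 in D1, 2.04, 6.19 and 6.07 in D2, and 5.85, 6.32, 2.23, 4.96 and 3.58 in D3. As for Bpifa1, the D1 lungs alone held no value above 4. The D3 difference was 0.46 (SE 0.91, 95% interval −1.47 to 2.38, adjusted p = 0.851), turning to −0.25 without mice 17 and 19, and it was 3.43, −2.43 and 0.28 within the 3 slides.

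The range over the 18 lungs was 7.44 on the log2 scale for Bpifa1, or 174-fold, 4.28 for Scgb3a1 and 1.04 for Scgb1a1. The SD within dose groups was 2.41 for Bpifa1 and 1.61 for Scgb3a1, against a median of 0.16 over 14763 genes, and lay at the 100th and 99.6th percentile of those genes. Scgb1a1, at 0.37, lay at the 91.3rd. The reference signal of the variable genes rose where the sample signal was high, to 308.5 for Bpifa1 and 1122 for Scgb3a1, so that the ratio understates the range of the sample signal, which was 840-fold and 278-fold. The reference of Bpifa1 was above background on 7 of 18 lung arrays and that of Scgb3a1 on 12 of 18. On the others the ratio was measured against background.

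No lung had a Bpifa1 value between 4.77 and 6.45, which left 7 lungs above this gap and 11 below it. The 7 above were the 7 whose reference signal was above background for Bpifa1. The 7 lungs above were those of mice 4 and 5 (D0), 13 and 15 (D2) and 16, 17 and 19 (D3), and all 3 slides held some. The 7 highest Scgb3a1 values came from the same 7 mice, whereas the 7 highest Scgb1a1 values shared 3 mice with them. In the 5 lungs above the gap other than those of mice 17 and 19, the mean of the skeletal muscle genes was −0.70 to −0.18. That of the keratinocyte genes was −0.58 to −0.43. Because the lungs formed separate clusters, no correlation among the secretory members was tested over all 18. Within the clusters 0 of 8 relations passed, but since the clusters were cut on Bpifa1, the range left within them is narrow. The strongest was Scgb3a1 against the mean of the other secretory genes in the 11 lungs below the gap, with r = 0.57 and rho = 0.58 (permutation p = 0.0697 and 0.0656, adjusted p = 0.163 and 0.153 over 14 relations), and r = 0.43 without the 2 farthest lungs.

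Markers of fat went with the same lungs. This list and one of heart muscle were drawn up after the values of genes alike to the secretory members had been seen. The mean log2 ratio of 8 adipocyte genes was 2.18 to 4.39 in the 7 lungs above the Bpifa1 gap and 0.41 to 1.78 in the 11 below it, without overlap. Adipoq, the adipocyte hormone adiponectin, was 1.33 to 4.24 above and −0.24 to 0.79 below, Cfd (adipsin) 4.74 to 7.48 and 0.61 to 4.46, and the fatty acid binding protein gene Fabp4 3.07 to 6.67 and 0.83 to 2.42. In all, 6 of the 8 did not overlap (also Plin1, Retn and Car3), beside 0.251% of 14763 genes. Since the list was drawn up with these same arrays seen, the count describes the split and supports no test. Cidec overlapped, and Lep, which encodes leptin, was above background on 0 of 18 lungs. With dose-group means removed, r with the secretory mean was 0.46 to 0.82 over the 8 genes, and 0.27 to 0.78 without mice 17 and 19. Here and for the heart muscle list, r spans both clusters of lungs and so describes their separation too.

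The mean of 8 cardiac muscle genes was 2.23 to 3.74 in the 7 lungs and 0.10 to 2.75 in the 11, and 0 of the 8 genes separated the 2 sets of lungs. Mice 3 and 9, below the gap, had means of 2.58 and 2.75, above those of mice 4 and 15 (2.40 and 2.23) above it. Over the 8 genes r with the secretory mean was 0.55 to 0.78, and 0.55 to 0.73 without mice 17 and 19. Nppa, a heart hormone, was above background on 4 of the 7 and 4 of the 11. The part of fat, heart muscle or other tissue taken with the section in the Bpifa1 and Scgb3a1 values was not tested.

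A further 6 genes outside the members were named because they resembled the mean of the secretory members most, by Pearson r over the 18 lungs with dose-group means removed. This r spans both clusters of lungs and so describes their separation too. They were Ltf (lactoferrin, r = 0.91), Bpifb1 (a relative of Bpifa1, 0.90), Reg3g (an antimicrobial lectin, 0.89), Muc5b (a gel-forming airway mucin, 0.87), Cyp4a12a (0.86) and Cyp4a12b (0.84). The last pair are near-identical fatty acid hydroxylases whose probes may not separate them. Without mice 17 and 19 the r values were 0.84 to 0.90, and with slide means removed 0.86 to 0.91. For each of the 6, the 7 highest lungs were the same 7 mice as for Bpifa1. Since the clusters were seen in the same arrays, these counts describe them and support no test.

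Ltf was 5.24 and 5.92 in D0 mice 4 and 5, and 2.90, 1.87 and 3.18 in mice 1, 2 and 3. In D1 it was 1.99 to 3.70. In D3 it was 5.24, 5.94 and 5.10 in mice 16, 17 and 19, but 1.62 and 2.65 in mice 18 and 20. Muc5b was 4.47 and 5.16 in mice 4 and 5 against 2.36, 1.59 and 2.23 in the other vehicle mice, and the high and low lungs did not overlap for either gene.

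**Figure D4:**
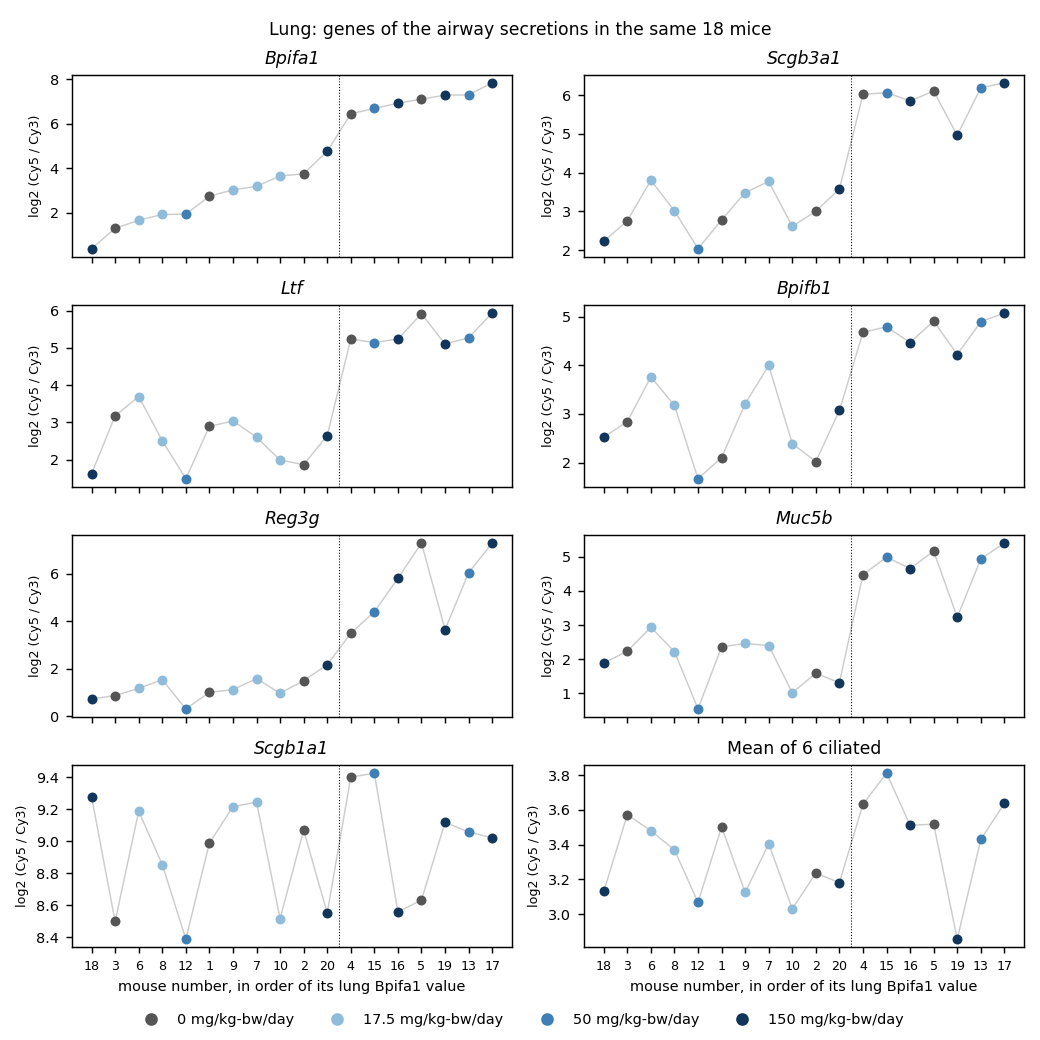
Log2 ratio in the 18 lungs of Bpifa1, Scgb3a1, 4 genes that resembled them, Scgb1a1 and the mean of the 6 ciliated genes, with mice in order of their Bpifa1 value and coloured by dose. The dotted line marks the gap in Bpifa1 between 4.77 and 6.45. The 7 mice to its right are the highest for Scgb3a1, Ltf, Bpifb1, Reg3g and Muc5b, but not for Scgb1a1 or the ciliated mean.

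The ciliated genes had small dose differences, and 0 of the 6 were called. Foxj1 was 3.55, 3.37, 3.88, 3.53 and 3.97 in D0, 3.33, 3.59, 3.15, 2.77 and 3.10 in D1, 3.09, 3.28 and 3.86 in D2, and 3.67, 3.72, 3.29, 2.85 and 3.35 in D3. The lowest value lay in D1 and the highest in D0, and the groups overlapped. The D1 difference was −0.47 (SE 0.19, 95% interval −0.87 to −0.08, unadjusted p = 0.0212, adjusted p = 0.832, limma) and the D3 difference −0.28 (SE 0.19, adjusted p = 0.474). With median centring they were −0.15 and −0.06.

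Rsph1 showed the largest D3 difference of the 6. It was 2.23, 1.89, 2.42, 2.59 and 2.39 in D0, 2.11, 2.17, 2.30, 1.80 and 1.81 in D1, 1.76, 2.13 and 2.70 in D2, and 2.20, 2.48, 1.76, 1.35 and 1.79 in D3. Of the D3 lungs, 3 lay below the lowest D0 lung and 2 within the D0 range. The difference was −0.39 (SE 0.20, 95% interval −0.81 to 0.04, adjusted p = 0.351), and a second Rsph1 probe gave −0.43. Within slides 1, 2 and 3 it was 0.42, −1.03 and −0.41.

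Tekt1 was 4.52, 4.22, 4.41, 4.57 and 4.34 in D0 and 4.18, 4.62, 4.07, 3.99 and 4.00 in D3. It thus lay below the lowest D0 value in 4 of 5 D3 lungs, and above the highest D0 value in mouse 17. The difference was −0.24 (SE 0.14, 95% interval −0.53 to 0.04, adjusted p = 0.393, limma), and the second Tekt1 probe gave −0.40. Dnah5 was 4.18, 3.64, 4.57, 4.20 and 4.10 in D0 and 4.63, 4.40, 3.57, 3.02 and 3.98 in D3, a difference of −0.22 (SE 0.27, adjusted p = 0.732).

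Ccdc39 and Dynlrb2 had the smallest D3 differences of the 6. Ccdc39 was 0.88 ± 0.11 in D0 and 0.79 ± 0.26 in D3 (SD, n = 5 each), a difference of −0.09 (SE 0.12, adjusted p = 0.752, limma). Dynlrb2 was 5.56 ± 0.22 and 5.41 ± 0.24, a difference of −0.15 (SE 0.16, 95% interval −0.47 to 0.18, adjusted p = 0.688). The group means of all 6 ciliated genes were thus lower at D3 than at D0, with a median difference of −0.23 beside −0.03 over all probes tested, but with median centring Dynlrb2 was 0.13 and Tekt1 0.00. The differences had no order over dose: 0 of 6 lay above 0 at D1, with a median of −0.18, and 2 of 6 at D2, with a median of −0.065. Median centring moved all probes by a median of 0.12 at D3 and 0.22 at D1. Alveolar type 1 genes moved by a like amount, with a median D3 difference of −0.22 and 0 of 5 above 0, against −0.04 and 2 of 5 without mice 17 and 19. Alveolar type 2 genes had a median of −0.05. The part of other lung tissue in the ciliated differences was not tested. Without mice 17 and 19 the D3 difference was −0.22 for Foxj1, −0.33 for Tekt1, −0.39 for Rsph1, −0.08 for Dnah5, −0.03 for Ccdc39 and −0.26 for Dynlrb2, and 0 of the 6 were called. Without mouse 19, the lung lowest in Foxj1 and Dnah5 of its group, the D3 difference was 0.00 for Dnah5 and 0.01 for Ccdc39.

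The wider programmes gave no called gene either. Among 35 further cilia genes, limma called 0 at D1, D2 and D3, and at D3 3 of 35 passed an unadjusted p of 0.05, all lower, beside 16.1% of all probes: Rfx3, Cfap45 and Pifo. The median D3 difference of the list was −0.19, and 5 of 35 lay above 0. At D1 the median was −0.15 with 5 of 35 above 0, and at D2 0.01 with 19 of 35. The largest D3 differences on this list were those of Mlf1 (0.64, SE 0.37), Pifo, a cilium protein (−0.45, SE 0.21), and Rsph9, a radial spoke protein (−0.39, SE 0.20), with adjusted p-values of 0.415, 0.291 and 0.335. Among 22 further secretory genes, 0 were called at any dose. At D3 3 of 22 passed the unadjusted limit, all lower, beside the same 16.1%: Scgb1c1, Spdef and Foxa2. The median of this list was −0.14, and the largest differences were those of Reg3g (1.10, SE 1.32), Bpifb1 (0.56, SE 0.69) and Upk3a (−0.46, SE 0.31), with adjusted p-values of 0.725, 0.731 and 0.493. Without mice 17 and 19 the D3 difference was −0.15 for Mlf1, 0.07 for Reg3g and 0.04 for Bpifb1. The unadjusted limit was then passed by 2 of 35 cilia genes and 1 of 22 secretory genes, beside 9.87% of all probes, and 0 were called.

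While no dose difference was called, the ciliated genes rose and fell together from lung to lung. Each gene was set against the mean of the other 5 over the 18 lungs, with dose-group means removed. Rsph1 was closest, with r = 0.95 and rho = 0.94 (permutation, adjusted p = 0.00042 and 7e-04 over 14 relations). Dnah5 gave r = 0.83 and rho = 0.81 (adjusted p = 0.0035 and 0.00322), Ccdc39 0.81 and 0.76 (0.00556 and 0.0106), Tekt1 0.79 and 0.80 (0.00556 and 0.00322) and Foxj1 0.76 and 0.72 (0.00823 and 0.0106). Dynlrb2 did not pass, with r = 0.40 and rho = 0.41 (adjusted p = 0.38 and 0.311). The unadjusted permutation p of r was 3e-05, 5e-04, 0.00125, 0.00159, 0.00294 and 0.19 in this order, and of rho 5e-05, 0.00068, 0.00351, 0.00069, 0.00379 and 0.156.

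Without the 2 lungs farthest from the median, r was 0.92 for Rsph1, 0.81 for Dnah5, 0.70 for Ccdc39, 0.75 for Tekt1, 0.65 for Foxj1 and 0.42 for Dynlrb2. Within slides 1, 2 and 3, r was 0.94, 0.97 and 0.98 for Rsph1 and 0.78, 0.86 and 0.89 for Foxj1. For Dynlrb2 it was 0.90, 0.46 and 0.85, and with slide means removed its r of 0.68 passed (adjusted p = 0.032). Without mice 17 and 19 the r of Foxj1 was 0.67 and no longer passed (permutation, adjusted p = 0.072), and neither did the rho of Foxj1 (0.68) or of Ccdc39 (0.67), each with an adjusted p of 0.0543. The same 18 arrays and their scaling are behind all genes of a lung, and their part in these correlations was not tested.

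The mean of the 6 ciliated genes ranged from 2.86 in mouse 19 (D3) to 3.81 in mouse 15 (D2). Mouse 12 (D2) lay below its group mean for all 6 genes and mouse 15 above it for all 6. The genes outside the members that resembled this mean most were Hoatz (r = 0.97), Cibar2 (0.96), Mok (0.96), Rsph9 (0.95), Odf3b (0.95) and Bphl (0.95), again as a description. Rsph9 is a partner of Rsph1 in the radial spoke, and Hoatz and Cibar2 are known for roles in cilia. The secretory and the ciliated mean were not shown to be related: r was 0.47 (rho 0.50) in the 7 lungs above the Bpifa1 gap (exact permutation p = 0.28 and 0.267, adjusted p = 0.49 and 0.415) and −0.03 (rho −0.03) in the 11 below it (permutation p = 0.926 and 0.946, adjusted p = 0.979 and 0.946).

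**Figure D5:**
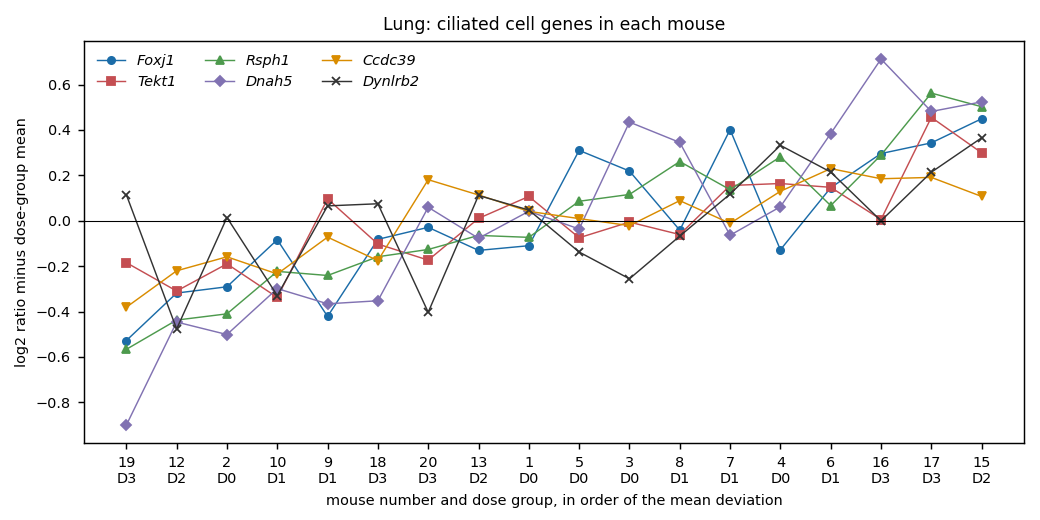
Log2 ratio of each ciliated gene minus its dose-group mean in the 18 lungs, in order of the mean deviation, with the mouse number and dose group under each. The lines of Foxj1, Tekt1, Rsph1, Dnah5 and Ccdc39 climb together from mouse 19 to mouse 15, and Dynlrb2 follows them least closely.

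In the other tissues, no member that could be tested was called. In liver limma called 0% of probes in any comparison, and only Dynlrb2 was bright enough to be tested, with a D3 difference of 0.05 (SE 0.17). It passed the unadjusted limit in 0 of 4 liver tests, beside 3.61%, 3.78% and 4.78% of all probes at D1, D2 and D3 and 5.41% in the trend. In forestomach 4 genes were tested and 0 called, beside 0% of probes at D1 and D2, 0.00727% at D3 and 0.04% in the trend. At an unadjusted p of at most 0.05 0 of these 4 passed, beside 4.17%, 7.54% and 9.24% of probes at D1, D2 and D3 and 9.18% in the trend.

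Scgb1a1 in forestomach was 6.33, 4.79, 4.57, 4.19 and 5.10 in D1, 4.60, 5.35, 4.70 and 4.66 in D2, and 5.57, 5.15, 5.10, 5.54 and 5.60 in D3. The D3 mice lay close together and inside the D0 range. The D3 difference was 0.64 (SE 0.47, 95% interval −0.35 to 1.63, adjusted p = 0.752, limma), 0.50 with the slide as a block, and −0.17, −0.07 and 1.68 within slides 1, 2 and 3. Scgb3a1 had a D3 difference of −0.70 (SE 0.70, adjusted p = 0.84), and of 0.02 without mouse 2. Rsph1 and Dynlrb2 had D3 differences of −0.10 (SE 0.24) and 0.04 (SE 0.17).

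The D3 effect was also compared between tissues, for the members bright enough in both. Between lung and liver this left Dynlrb2, whose D3 effect differed by −0.20 (SE 0.24, limma) and was not called, beside 0% of all probes. Between lung and forestomach it left 4 members, of which 0 were called, beside 0.703%. The difference was −0.65 (SE 0.44) for Scgb1a1, 1.15 (SE 0.99) for Scgb3a1, −0.29 (SE 0.29) for Rsph1 and −0.18 (SE 0.24) for Dynlrb2, with adjusted p-values of 0.594, 0.701, 0.773 and 0.843. Between forestomach and liver it left Dynlrb2, at −0.01 (SE 0.24), which was not called, beside 0.0772%. At an unadjusted p of at most 0.05 none of these passed, beside 5.25%, 12.9% and 9.89% of probes in the 3 comparisons.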

How the data were processed

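RNA of 56 samples was measured on Agilent 2-colour arrays, with the sample in Cy5 and the reference in Cy3 and no dye swap. Per the file headers, the deposited scanner files hold median spot intensity quantified by Feature Extraction 10.7.3.1, with flags of 0 or 1 for spots above background. The authors deposited log2 ratios made from median signals by LOWESS, and these were used as given. They correlated with the scanner ratios at 0.977 to 0.998. Probes were named by RefSeq accession (47.4% of 55681 probes). Groups and mouse numbers came from the labels. The number on a label names the same animal in each tissue, and deviations of the tissues of a mouse correlated at −0.17 to 0.28.

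Probes with Cy5 well above background on at least 3 arrays of a tissue were tested (31496 in lung, 24769 in liver, 27527 in forestomach) with limma 3.58.1 in R 4.3.3, in place of MAANOVA, which the study used. A probe was called at a fold of 1.5 or more with its p, after Benjamini-Hochberg adjustment over every probe tested, no higher than 0.05. An "at least" fold is the smallest of the normalized Cy5 signal, the scanner Cy5 signal and the ratio, with dim arrays raised to the background floor. The use of all 3, in place of normalized Cy5 alone, was chosen after seeing the data, as the values differed. It is open to dye bias. Ratios below background have no order. Correlations used 100000 permutations within dose groups, or exact ones for 7 lungs. In place of 11 planned relations, 14 were computed, since Scgb3a2 had no probe and the clusters of lungs, seen in these data, were kept apart. The script was tested on simulated data. The number of arrays limits the precision. Alternatives were loess or median centring of the scanner signals, normexp with an offset of 50, other filters, slide and mouse blocks, probe means and leaving out mice. By rule, genes named beyond the members were the 6 most alike to each mean and the 3 of each further list with the largest D3 change in lung. Other genes were named as members of the lists of other cell types or, like those of the adipocyte and cardiac muscle lists and those past the unadjusted limit, after their values had been seen. Members and lists were chosen with earlier results of these data known.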

Additional observations from a re-analysis of the deposited data

Results flagged for a closer look

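Among 47 groups of 4 or 5 values of a gene that was tested in its tissue, 2 held a value far from the others, where about 1 in 20 groups, or 2.35, would by chance. Dynlrb2 in the D2 forestomach of mouse 13 was −0.38, below the other 3 at 0.25 to 0.37, near background. Scgb1a1 in the D2 forestomach of mouse 12 was 5.35, above the other 3 at 4.60 to 4.70, and mouse 12 was the only one of the 4 on slide 1, where all forestomach values of Scgb1a1 were 5.10 or higher.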

How the results depend on the processing

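Every count of members called was the same under the alternatives run, with 2 exceptions. Between forestomach and liver at D0, 2 in place of 1 were called without mouse 4 (range 1 to 2 over leaving out each mouse), the other being Scgb3a1 (1.72, and 0.64 to 1.72 over the mice left out), although 0 livers were above background for it. With median centring 8 in place of 9 were called in lung over forestomach, as Ccdc39 fell under the fold limit (0.50). With the mouse as a replicate block, which pairs the tissues of an animal, the counts stayed at 9, 9 and 1 for lung over liver, lung over forestomach and forestomach over liver, and the block changed no other call. Directions turned only for differences that passed no test. With median centring this held in lung at D1 for Tekt1 (0.17), Rsph1 (0.079), Dnah5 (0.044) and Dynlrb2 (0.34), in lung at D3 for Tekt1 (0.0018), Dynlrb2 (0.13) and Scgb1a1 (0.27), and in forestomach at D3 for Rsph1 (0.077). Scgb1a1 in lung turned at D3 with loess on the scanner signals (0.020) and with normexp (0.019), and at D1 with the slide as a block (−0.050), and Dynlrb2 in forestomach at D3 with normexp (−0.012). Without mice 17 and 19, Scgb3a1 and Bpifa1 in lung at D3 were −0.25 and −0.24. Leaving out each mouse in turn gave, in lung at D3, −0.12 to 0.11 for Scgb1a1, −0.40 to 0.0046 for Dnah5 and −0.14 to 0.0059 for Ccdc39. In lung at D1 it gave −0.019 to 0.21 for Scgb1a1 and −0.13 to 0.018 for Dynlrb2, and in forestomach at D3 −1.06 to 0.015 for Scgb3a1, −0.24 to 0.030 for Rsph1 and −0.060 to 0.13 for Dynlrb2. The correlation of Dynlrb2 passed with slide means removed (r = 0.68), and that of Foxj1 did not without mice 17 and 19 (r = 0.67, adjusted p = 0.072 by permutation), nor the rho of Foxj1 and Ccdc39 (adjusted p = 0.0543). The causes were not tested. Signal over background limits the liver and forestomach values, where most members could not be tested.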
